A study of Mus musculus with 2 samples.

Results

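The inhibitory checkpoint receptors and ligands were followed through 10 genes of the 22337 gene symbols measured. They were listed by name, with earlier results of these data known. The receptors were Pdcd1, Ctla4, Lag3, Tigit, Havcr2 and Cd200r1, the ligands were Cd274, Pdcd1lg2 and Lgals9, and Tox was the one transcription factor. All 10 were present in the expression table, and each was described in 14 cell types as the authors annotated them and in 6 transplanted hearts. Donor hearts came from male Bm12 mice, which carry a mutant MHC class II molecule, and were placed into male B6 mice that differ from the donors at this molecule. Donors of 3 hearts were wild type for Il33 (BM12 WT 1 to 3, here hearts 1 to 3, labelled IL-33+) and donors of the other 3 were backcrossed Il33 knockouts (BM12 IL33 KO 4 to 6, here hearts 4 to 6, labelled IL-33-). Every recipient kept a working Il33 gene, so the deletion covered graft cells and not the infiltrating recipient cells. Grafts were taken at postoperative day 14, immune cells were enriched on a density gradient, and the cells of each heart were tagged with their own hashtag antibody before all hearts were captured together. Ages were not given in the sources used here.

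The data held 4441 cells with distinct barcodes, 230 to 1666 per heart and 83 to 931 per annotated type, and 1500 to 14977 unique molecular identifiers (UMIs, each marking 1 captured transcript) per cell. Heart 2 was the smallest, with as few as 2 unconventional T cells, 4 Mo-DCs and 5 monocytes. The deleted gene did not separate the labels at this depth. Il33 in the cells annotated as fibroblasts was at 24.3, 0 and 50.7 CPM (UMIs of the gene scaled to a common total per cell) in hearts 1 to 3 and at 32.6, 73.8 and 16.1 CPM in hearts 4 to 6, on 145 UMIs in all, and whether the captured 3′ end lies outside the deleted part was not tested. Groups are therefore named by their labels, and every direction below is that of the labels. Foxp3, Cd79a, Ncr1, Flt3, Adgre1 and Col1a1 were highest in Tregs, B cells, NK cells, cDCs, macrophages and fibroblasts, as the names of these types say. Several types also held markers of other cells. Mo-DCs had the highest S100a8 of any type (9007 CPM) and 43 of the 204 cells had 3 or more of 5 neutrophil markers, 50 of the 83 unconventional T cells held markers of T cells and of myeloid cells together, and 65 of the 375 fibroblasts held 2 or more of 4 endothelial markers. A Siglech UMI, a marker of plasmacytoid dendritic cells, was found in 32 of the 171 cDCs. Of 4 NK cell markers, 3 were found in Trm-like cells, with Ncr1 at 0, and they summed to 1167 CPM there against 6731 CPM in NK cells. The sum was 4892 CPM in NKT cells, 564 CPM in unconventional T cells, 405 CPM in Tcm and 195 CPM in Tregs. Cd8a was highest in Trm-like cells (256 CPM), and whether these T cells expressed the 3 markers themselves was not tested.

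PD-1 (Pdcd1), CTLA-4, LAG-3, TIM-3 (Havcr2) and TIGIT are surface receptors that dampen T cell responses. They are induced by antigen and are carried by activated, regulatory and exhausted T cells. PD-L1 (Cd274) and PD-L2 (Pdcd1lg2) are the ligands of PD-1, galectin-9 (Lgals9) binds TIM-3 among other partners, and CD200R1 restrains mainly myeloid cells after binding CD200. Tox is a nuclear factor that T cells need to maintain exhaustion. In heart grafts, PD-L1 and CTLA-4 are known for limiting rejection.

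On the GRCm38 build, with gene models of GENCODE vM21, Cd274 (chr19:29367455-29388095, plus strand) and Pdcd1lg2 (chr19:29410919-29471161, plus strand) are neighbours, with 22824 bases between the end of the first and the start of the second. Pdcd1 (chr1:94038305-94052553, minus strand) and Ctla4 (chr1:60887000-60915832, plus strand) lie far apart on chromosome 1. The 250 bases before the RefSeq start of these 4 genes (GRCm38.p6) are given because Pdcd1 and Ctla4 had like levels over the cell types while the neighbours Cd274 and Pdcd1lg2 did not. Each is printed 5′ to 3′ in the direction of its gene, and capitals mark GGAAA on either strand, the core that NFAT proteins bind after T cell receptor signalling.
Pdcd1, chr1:94052554-94052803, minus strand: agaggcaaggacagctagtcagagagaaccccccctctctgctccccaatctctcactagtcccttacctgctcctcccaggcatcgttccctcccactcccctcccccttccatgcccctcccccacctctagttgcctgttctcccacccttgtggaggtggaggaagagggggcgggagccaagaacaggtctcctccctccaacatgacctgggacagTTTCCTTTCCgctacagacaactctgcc
Ctla4, chr1:60908775-60909024, plus strand: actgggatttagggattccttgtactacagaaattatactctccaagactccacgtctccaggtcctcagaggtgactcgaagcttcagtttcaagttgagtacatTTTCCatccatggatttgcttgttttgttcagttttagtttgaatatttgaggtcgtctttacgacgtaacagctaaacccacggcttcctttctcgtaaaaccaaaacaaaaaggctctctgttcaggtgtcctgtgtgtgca
Cd274, chr19:29367188-29367437, plus strand: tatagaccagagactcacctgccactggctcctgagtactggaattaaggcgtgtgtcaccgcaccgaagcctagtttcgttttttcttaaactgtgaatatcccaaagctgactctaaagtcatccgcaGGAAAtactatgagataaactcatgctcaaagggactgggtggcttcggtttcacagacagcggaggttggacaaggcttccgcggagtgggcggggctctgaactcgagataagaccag
Pdcd1lg2, chr19:29410669-29410918, plus strand: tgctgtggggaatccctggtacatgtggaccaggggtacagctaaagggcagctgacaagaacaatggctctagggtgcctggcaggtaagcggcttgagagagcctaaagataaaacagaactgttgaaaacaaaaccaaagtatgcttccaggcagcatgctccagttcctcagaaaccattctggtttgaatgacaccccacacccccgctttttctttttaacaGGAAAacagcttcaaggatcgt
RefSeq promoters were at hand for 7 of the 10 genes. Pdcd1 held 2 matches, which adjoin each other within 30 bases of the start, Tigit held 2, Ctla4, Cd274, Pdcd1lg2 and Lgals9 held 1 each and Havcr2 held 0. The same 5 bases were found in 55.6% of all 32851 promoters of this length, so the matches are letters in a window and no more. TTCNNNGAA, the site of STAT proteins, was in 7.02% of all promoters and TGANTCA, that of AP-1, was in 6.75%. Neither was in the 4 windows printed, and the Havcr2 window held 1 TGANTCA.

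The members fell into a T cell set and a myeloid or widely spread set. The 5 types Treg, Tem/eff, Trm-like, Tcm and Tn (regulatory, effector memory and effector, resident memory-like, central memory and naive T cells) held 86.2% of the UMIs of Pdcd1, 78.5% of Ctla4, 80.6% of Lag3, 76.2% of Tox and 57.3% of Tigit. Havcr2 had 79.9% of its UMIs in the 4 types Monocytes, Macrophages, Mo-DCs and cDCs, against 9.27% in the 5 T cell types. Cd274 had 49.9% of its UMIs in those myeloid types, Pdcd1lg2 34.5% and Lgals9 24.0%. The types were annotated from these same cells, so levels between types are descriptions without a test. For each heart the CPM of a type's cells was averaged, and levels are the mean ± SD of these heart values.

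**Figure D1:**
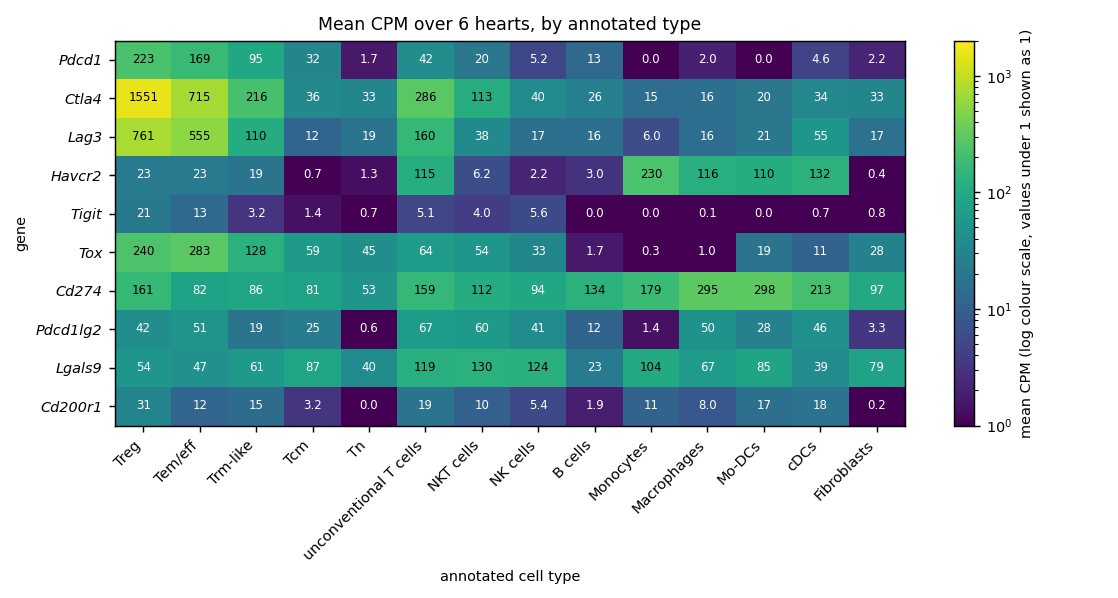
Mean CPM over 6 hearts for each of the 10 genes (rows) in each of the 14 annotated types (columns), with the value printed in each cell and a logarithmic colour scale. Ctla4 reached 1551 CPM in Tregs, whereas Havcr2 was highest in Monocytes at 230.1 CPM and under 25 CPM in Tregs and in Tem/eff.

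Ctla4, which competes with CD28 for the B7 ligands, had its highest level in Tregs at 1551 ± 467 CPM (SD, n = 6 hearts). Hearts 1 to 3 held 1462, 1372 and 1376 CPM, and hearts 4 to 6 held 2467, 1130 and 1502 CPM. Heart 4 was the highest and heart 5 the lowest, both labelled IL-33-, and the 2 groups overlapped. Tem/eff followed at 715 ± 169 CPM, below Tregs in 6 of 6 hearts and with no overlap between the ranges. Unconventional T cells followed at 286 ± 80.4 CPM, again below Tem/eff in all 6 hearts. Trm-like cells at 216 CPM did not differ from unconventional T cells beyond the spread of the hearts. After each cell was thinned to 1500 UMIs, the fewest in any cell, 57.0% of 263 Tregs and 53.8% of 327 Tem/eff had a Ctla4 UMI (71.5% and 82.6% before thinning). Fibroblasts, which should lack the gene, had 3.2% (9.87% before thinning), with median depths of 2860, 5693 and 5790 UMIs per cell in the 3 types.

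Within Tregs, the 51 cells with a Foxp3 UMI held 2805 CPM of Ctla4 as a mean over hearts, and the 212 cells without one held 1177 CPM. The range was 1753 to 4312 CPM with a Foxp3 UMI and 745 to 1570 CPM without, so the 6 hearts did not overlap. Of the 51 cells, 50 had a Ctla4 UMI. Median depths were alike, at 2734 and 2873 UMIs. Tigit was lower in cells with Foxp3 in 6 of 6 hearts, but on 1 UMI there and 20 in cells without, too few to read a direction. These cells and the other subsets below were chosen after the levels of the types were seen, and they get no test.

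Lag3, whose protein binds MHC class II, the molecule mismatched in these grafts, was at 761 ± 210 CPM in Tregs. Hearts 1 to 3 held 1032, 440 and 738 CPM, and hearts 4 to 6 held 886, 621 and 851 CPM. Tem/eff followed at 555 ± 161 CPM, lower in 4 of 6 hearts and within the spread. The step to unconventional T cells (160 CPM) was larger than the spread and was seen in 6 of 6 hearts. Thinned shares of cells with a UMI were 39.9% in Tregs and 45.6% in Tem/eff (52.5% and 77.4% before thinning), against 2.67% in fibroblasts (9.33% before). Lag3 had Tnfrsf4, the costimulatory receptor OX40, as the gene with the most similar levels over the 14 types (Pearson r = 0.983 on log2 levels, 9469 genes compared), followed by Sdcbp2 (0.968) and Ctla4 (0.963). Types share hearts and libraries, so such correlations describe the levels and carry no p.

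Pdcd1 stood at 223 ± 92.5 CPM in Tregs. The hearts held 128, 252 and 386 CPM under the IL-33+ label and 199, 227 and 149 CPM under the IL-33- label, with both the lowest and the highest value in the first group. Tem/eff at 169 ± 47.3 CPM did not differ from Tregs beyond the spread, while Trm-like cells at 95.1 ± 31.1 CPM were lower than Tem/eff in 6 of 6 hearts. Thinned shares were 25.5% in Tregs (37.6% unthinned) and 17.7% in Tem/eff (45.6%), and 0 of 375 fibroblasts (5 cells, or 1.33%, unthinned). In Tem/eff, cells with a Cd8a or Cd8b1 UMI and no Cd4 UMI (n = 55) held 275 CPM of Pdcd1, and cells with the reverse (n = 203) held 162 CPM. The CD8 cells were higher in 6 of 6 hearts, though the ranges overlapped. Ctla4 showed the opposite order in 6 of 6 hearts, with 380 CPM in the CD8 cells and 790 CPM in the CD4 cells.

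Tox was highest in Tem/eff at 283 ± 64.3 CPM. Hearts 1 to 3 held 226, 248 and 319 CPM, and hearts 4 to 6 held 328, 370 and 210 CPM. Tregs at 240 ± 25.3 CPM lay within the spread of Tem/eff, and both were above Trm-like cells (128 ± 85.3 CPM), Tregs in 6 of 6 hearts. Monocytes held 1 Tox UMI in 154 cells. Thinned shares were 30.9% in Tem/eff (67.3% unthinned), 24.7% in Tregs (44.1%) and 0 of 154 monocytes, which allows up to 1.95%.

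Tigit was scarce, with 103 UMIs in 98 cells of the whole data set. Tregs held 21.4 ± 11.3 CPM, or 13.9, 13.3 and 36.8 CPM in hearts 1 to 3 and 34.5, 18.5 and 11.6 CPM in hearts 4 to 6. Tem/eff held 13.4 ± 6.69 CPM, within the spread of Tregs. No UMI was found in B cells, Mo-DCs or Monocytes. Its levels over types were most like those of Podnl1 (r = 0.956) and of Foxp3 (r = 0.940), the factor that defines Tregs.

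**Figure D2:**
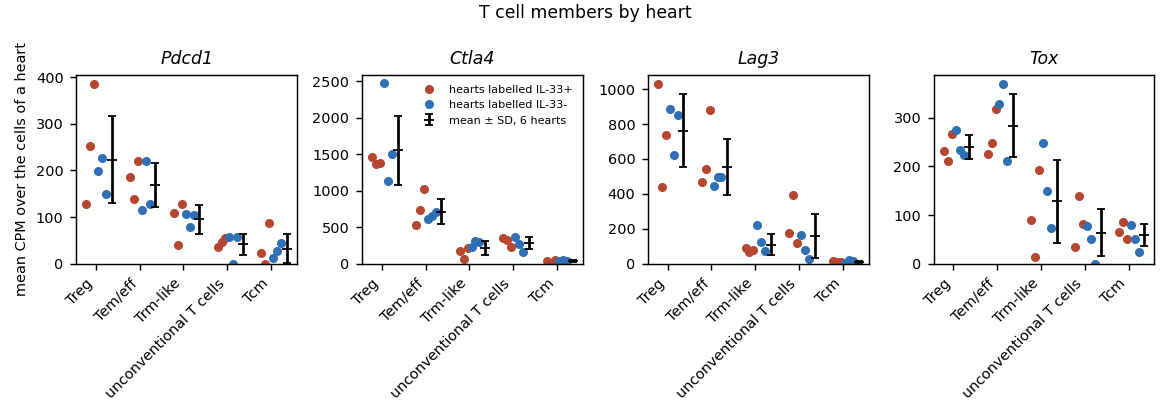
Mean CPM per heart (y axis, linear from 0) for Pdcd1, Ctla4, Lag3 and Tox in 5 annotated types (x axis). Red points are hearts 1 to 3, blue points hearts 4 to 6, and black bars the mean ± SD over 6 hearts. Tregs and Tem/eff stand above the other types for all 4 genes, and in Trm-like cells the 3 red points of Ctla4 lie below the 3 blue ones.

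Over the 14 types the T cell members had like levels. Pearson r on log2 levels was 0.94 for Pdcd1 with Ctla4, 0.96 for Ctla4 with Lag3, 0.88 for Ctla4 with Tox and 0.93 for Ctla4 with Tigit. Havcr2 stood apart, with r from -0.34 to 0.08 against these 5 genes and 0.79 against Cd274. The genes most like Pdcd1 were A430093F15Rik (0.966), Crmp1 (0.960) and Uhrf2 (0.939), and those most like Tox were Chst2, Gabpb1 and Atxn1 (0.948 to 0.956).

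Single cells often held several receptors. Among Pdcd1, Ctla4, Lag3, Havcr2 and Tigit, 36.04% ± 4.56 of Tem/eff per heart (SD, n = 6 hearts) had a UMI of 2 or more after thinning. Over all 327 cells the share was 37.3% (95% Wilson interval 32.2% to 42.7%, for counting error only), and it was 80.1% at full depth. By heart it was 37.0%, 30.4% and 44.2% in hearts 1 to 3 and 34.4%, 35.7% and 34.5% in hearts 4 to 6, and the 2 groups overlapped. Tregs were at 40.9% ± 7.02, from 28.0% in heart 2 to 47.3% in heart 4. Trm-like cells were at 10.3% ± 7.65. They were at 6.17%, 0% and 7.55% in hearts 1 to 3 and at 22.03%, 15.2% and 11.1% in hearts 4 to 6, which do not overlap. Heart 2 had 20 of these cells. Levels of 9.81% of all gene-type pairs did not overlap between the groups. Ctla4, which counts toward this share, separated the same hearts in Trm-like cells, so the share is not a separate result. The NK cell markers in the same Trm-like cells did not overlap either, at 2375, 1142 and 2036 CPM in hearts 1 to 3 and 230, 537 and 685 CPM in hearts 4 to 6, and their part in the share was not tested. In fibroblasts 1 of 375 thinned cells had 2 or more, and none of 266 Tcm, 243 Tn and 286 B cells did. At full depth the shares were 21.6% of Trm-like cells, 3.38% of Tcm, 1.87% of fibroblasts, 0.823% of Tn and 0.699% of B cells.

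Pairs of receptors met in a cell to different extents in Tregs, Tem/eff and Trm-like cells. In Tregs, 72.4% of 105 cells with a Lag3 UMI also had a Ctla4 UMI, against 46.8% of the 158 without, and the share was higher with Lag3 in 6 of 6 hearts. In Tem/eff the same shares were 56.4% of 149 and 51.7% of 178, higher in 3 of 6 hearts. In Trm-like cells they were 48.8% of 43 and 20.1% of 319, higher in 5 of the 5 hearts that had cells with Lag3. Pdcd1 did not go with Ctla4 in Tregs, where 55.2% of the cells with Pdcd1 and 57.7% of those without held Ctla4. All these shares are after thinning, and differences between types were not tested.

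Havcr2, the T cell receptor of the group that is also a known product of myeloid cells, was highest in Monocytes at 230 ± 70.1 CPM. Hearts 1 to 3 held 254, 101 and 268 CPM, and hearts 4 to 6 held 199, 290 and 269 CPM, with the lowest value in heart 2 on 5 monocytes. cDCs at 132 ± 100 CPM, Macrophages at 116 ± 56.6 CPM, unconventional T cells at 115 CPM and Mo-DCs at 111 ± 53.9 CPM followed, each within the spread of its neighbour. The next step was wide: Tem/eff held 23.1 ± 14.7 CPM, below Mo-DCs in 6 of 6 hearts with no overlap. Thinned shares were 24.7% of 154 Monocytes (67.5% unthinned) and 0.412% of 243 Tn (0.823%), which should lack the gene and have a median of 2764 UMIs against 6709. Lgals3, a galectin of macrophages, was the gene most like it over the types (r = 0.971). Within Tem/eff, the 55 CD8 cells held 24 of its UMIs and the 203 CD4 cells held 16, but the CD4 cells had the higher level in 3 hearts and the CD8 cells in the other 3.

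Cd274 was found in every type. Mo-DCs at 298 ± 144 CPM and Macrophages at 295 ± 118 CPM led and could not be separated. In Mo-DCs hearts 1 to 3 held 308, 491 and 304 CPM, and hearts 4 to 6 held 47.4, 284 and 350 CPM. Heart 4 was far below the rest, and the same 28 cells had the highest sum of 5 neutrophil markers of any heart (69371 CPM, against 1407 to 16040 CPM in the others). In this heart Cd274 was at 47.1 CPM in the cells with 3 or more neutrophil markers and at 47.7 CPM in the others. Both values rest on 3 UMIs in all, too few to compare the subsets, and the part of the neutrophil markers was not tested. Macrophages held 234, 242 and 519 CPM and 270, 185 and 320 CPM in the same order. cDCs (213 CPM), Monocytes (179 CPM), Tregs (161 CPM), unconventional T cells (159 CPM) and B cells (134 CPM) followed, each within the spread of its neighbour. The thinned share of cells with a UMI was 28.9% in Macrophages and 26.3% in cDCs (67.1% and 50.3% before thinning). It was 6.996% in Tn (11.5% before), and no type was fixed as lacking this gene.

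Inside 2 of these types Cd274 was higher in a subset of the cells. The 29 cDCs with both a Ccr7 and a Fscn1 UMI, genes of mature dendritic cells that migrate to lymph nodes, held 597 CPM as a mean over hearts (495 to 671 CPM). The 31 cells with Xcr1 or Clec9a, markers of cross-presenting dendritic cells, held 123 CPM (0 to 248 CPM), and the other 111 held 130 CPM (87.1 to 174 CPM). No heart overlapped, and 26 of the 29 cells had a Cd274 UMI. They held 124 of the 264 Cd274 UMIs of cDCs, so more than these lay in the other cells. Pdcd1lg2 was at 107 CPM in the same 29 cells and 31.2 CPM in the other 111, and Lgals9 was lower, at 2.31 CPM against 37.7 CPM. Havcr2 was also lower in these cells, at 12.3 CPM against 158 CPM, with no overlap between hearts. In the type annotated as fibroblasts, the 65 cells with endothelial markers held 143 of the 213 Cd274 UMIs. Their level was 331 CPM over 5 hearts, against 38.8 CPM in the other 310 cells. It was higher in 5 of the 5 hearts that had such cells, though the ranges overlapped.

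Pdcd1lg2 had 763 UMIs and a flat profile. Unconventional T cells at 66.9 ± 45.6 CPM were followed by NKT cells (59.7 ± 20.7 CPM), Tem/eff (50.6 CPM) and Macrophages (50.1 ± 17.5 CPM), with every step inside the spread. Hearts 1 to 3 held 85.1, 138 and 64.4 CPM in unconventional T cells, and hearts 4 to 6 held 11.8, 77.8 and 24.1 CPM. Tn held 1 UMI in 243 cells and Monocytes 5 in 154, all 5 from heart 1. Thinned shares were 8.39% of Macrophages and 0 of 243 Tn, which allows up to 1.23%. The ligand next to it in the genome, Cd274, had r = 0.34 with it over the 14 types.

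Lgals9 was highest in NKT cells at 130 ± 34.5 CPM and NK cells at 124 ± 16.1 CPM. NKT cells held 126, 84.1 and 127 CPM in hearts 1 to 3 and 115, 190 and 135 CPM in hearts 4 to 6. Unconventional T cells (119 CPM) and Monocytes (104 CPM) lay within the spread of their neighbours. In NK cells the 6 hearts lay between 99.3 and 150 CPM, with 931 cells behind them. Tbc1d2b was the most similar gene (r = 0.908).

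Cd200r1 rested on 223 UMIs. Tregs held 30.6 ± 18.0 CPM, with 32.3, 35.1 and 59.9 CPM in hearts 1 to 3 and 15.0, 8.54 and 32.5 CPM in hearts 4 to 6. Unconventional T cells, cDCs, Mo-DCs and Trm-like cells held 14.9 to 18.7 CPM, all within the spread. After thinning, 4.18% of Tregs had a UMI, and 0 of 243 Tn had one at any depth, which allows up to 1.23%.

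**Figure D3:**
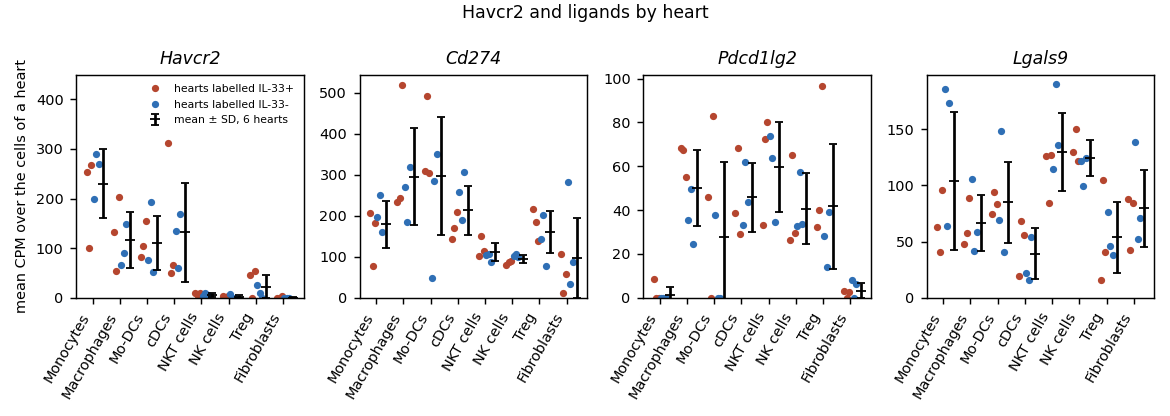
Mean CPM per heart (y axis, linear from 0) for Havcr2, Cd274, Pdcd1lg2 and Lgals9 in 8 annotated types (x axis). Red points are hearts 1 to 3, blue points hearts 4 to 6, and black bars the mean ± SD over 6 hearts, with the part below 0 not drawn. Havcr2 is near 0 in NK cells and fibroblasts, Cd274 is present in all 8 types and Pdcd1lg2 is near 0 in Monocytes.

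The graft groups were compared in each type with the heart as the replicate, to see whether a graft without Il33 changed these genes in the cells around it. For a gene with at least 10 UMIs over the hearts and a UMI in 3 or more hearts, log2(mean CPM + 10) was compared with limma and adjusted over all genes tested in that type by Benjamini-Hochberg. Fold changes are on this log2 scale, IL-33+ over IL-33-, and understate the change of low genes. Of the 140 pairs of a member and a type, 103 could be tested and 37 were too low. Ctla4, Cd274 and Lgals9 could be tested in all 14 types, Lag3 in 12, Pdcd1lg2 in 11, Havcr2, Tox and Cd200r1 in 9 each, Pdcd1 in 7 and Tigit in 4. None of the 103 pairs passed an adjusted p of 0.05, where the lowest was 0.564, and 0.00884% of all 113178 gene-type pairs did (10 pairs). At an unadjusted p of 0.05 or less there were 5 pairs, or 4.85%, against 4.71% of all gene-type pairs. They were 4 higher in IL-33+ hearts, against a background of 2.42%, and 1 lower. The groups did not overlap in 9 of the 103 pairs (8.74%), against 9.81% over all genes, and beside the cDC and Trm-like pairs described below these included Pdcd1lg2 in Macrophages (means of 63.7 and 36.6 CPM in IL-33+ and IL-33- hearts) and Cd274 in NK cells (85.6 and 103 CPM). Some marker lists also did not overlap between the groups in these types, and how often a list does so was not worked out. In Macrophages the 8 dendritic cell markers summed to 270 to 345 CPM in IL-33+ and 18.3 to 203 CPM in IL-33- hearts. The 4 fibroblast markers went the other way in Macrophages, at 172 to 280 CPM and 304 to 481.5 CPM. In NK cells the 3 monocyte markers summed to 458 to 512 CPM and to 732 to 747 CPM. The 6 myeloid markers overlapped in NK cells, at 100 to 171 CPM and 78.6 to 190 CPM. The part of these lists was not tested. Of the tested pairs 53 were higher and 50 lower in IL-33+ hearts, with a median log2 fold change of 0.03, against 0.00 over all genes. The members' counts are thus near those of the whole table.

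In the types where the members were highest, all 10 intervals included 0. Ctla4 in Tregs was 1403 ± 51.0 CPM in IL-33+ and 1700 ± 690 CPM in IL-33- hearts (SD, n = 3 each), a log2 fold change of -0.20 with a 95% interval of -0.62 to 0.22. Lag3 in Tregs was at -0.16 (-0.66 to 0.34) and Pdcd1 at 0.29 (-0.40 to 0.97). Tox in Tem/eff was at -0.17 (-0.58 to 0.24). The interval was wider for Tigit in Tregs, from -1.30 to 1.25, and for Havcr2 in Monocytes it ran from -1.08 to 0.34. Cd274 in Mo-DCs was at 1.01 (-0.17 to 2.20), Pdcd1lg2 in unconventional T cells at 1.34 (-0.09 to 2.76), Lgals9 in NKT cells at -0.35 (-0.84 to 0.15) and Cd200r1 in Tregs at 0.92 (-0.27 to 2.11). Without heart 4 Cd274 in Mo-DCs was at 0.18, and without mixed cells Pdcd1lg2 in unconventional T cells was at 0.58 (0.89 without heart 4). All genes in Tregs had 5.10% at an unadjusted p of 0.05 or less, and all genes in Tem/eff 4.41%; no member was among them in either type. In Tem/eff the intervals excluded a 2-fold change either way for Pdcd1 (-0.23 to 0.72), Ctla4 (-0.19 to 0.50), Lag3 (-0.04 to 0.69) and Tox.

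**Figure D4:**
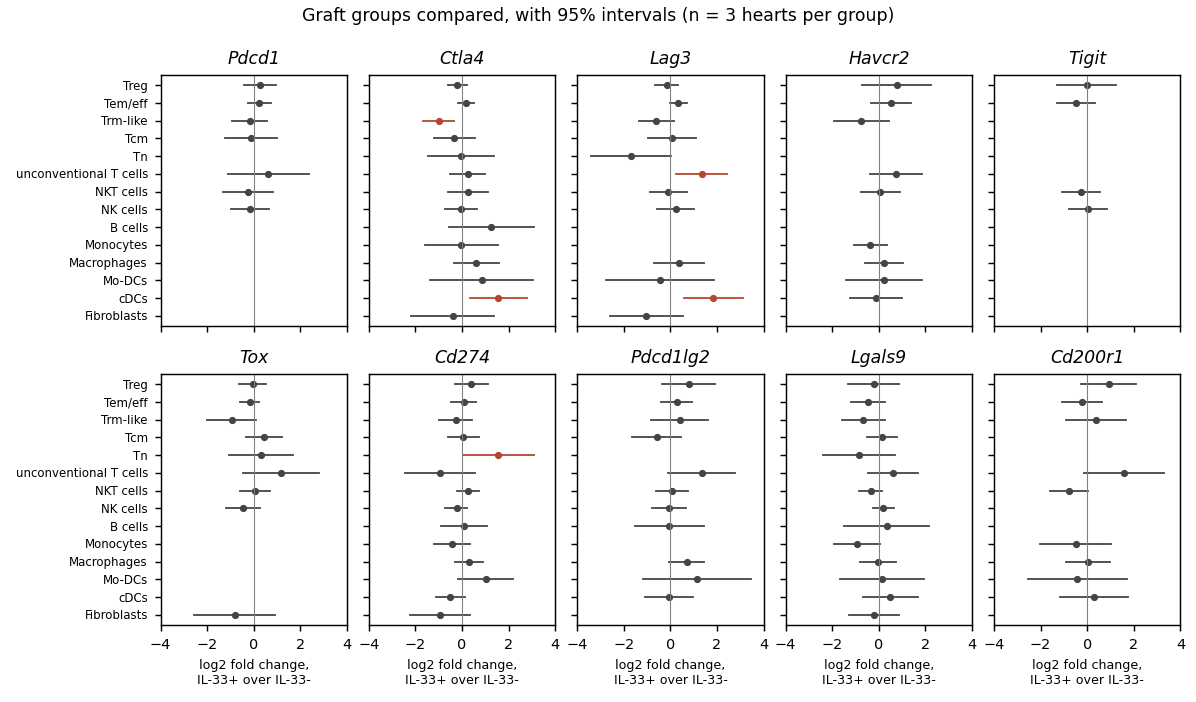
Log2 fold change, IL-33+ over IL-33- (x axis), with its 95% limma interval for each member (panel) in each annotated type (y axis) that had enough UMIs, n = 3 hearts per group. Red marks the 5 pairs at an unadjusted p of 0.05 or less, none of which passed adjustment, and the other 98 intervals include 0.

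Ctla4 in Trm-like cells was 176, 61.2 and 215 CPM in hearts 1 to 3 and 236, 314 and 294 CPM in hearts 4 to 6, without overlap. The log2 fold change was -1.01 (SE 0.32), with an adjusted p of 0.923 in limma, in a type where 5.05% of all genes had an unadjusted p of 0.05 or less. Heart 2 rests on 3 UMIs in 20 cells, and without it the value was -0.50. In the same cells Lag3 was at -0.60 (-1.34 to 0.14) and Tox at -0.95 (-2.00 to 0.09). The NK cell markers, which went from 1142 to 2375 CPM in Trm-like cells of IL-33+ hearts and from 230 to 685 CPM in those of IL-33- hearts, separated the same groups in the opposite direction. The 4 Treg markers, all present, summed to 198 to 602 CPM and to 319 to 446 CPM. The part of either list in the Ctla4 difference was not tested.

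Both Ctla4 and Lag3 were higher in cDCs of IL-33+ hearts before adjustment. Lag3 was at 71.1, 62.3 and 132 CPM in hearts 1 to 3 and at 42.7, 0 and 24.6 CPM in hearts 4 to 6, and the groups did not overlap. The log2 fold change was 1.84 (SE 0.60), with an adjusted p of 0.564 in limma. Ctla4 was at 46.0, 52.9 and 60.1 CPM against 23.3, 0 and 19.3 CPM, at 1.55 (SE 0.59), with an adjusted p of 0.665 in limma. The background in this type at that unadjusted p was 6.79%. Heart 5, at 0 for both genes, had 9 cDCs, and without it the fold changes were 1.14 for Lag3 and 1.01 for Ctla4. Heart 2 had 6 cDCs, with 2 UMIs of each gene. Over the 6 hearts Ctla4 in cDCs averaged 33.6 CPM on 38 UMIs. That is near the 32.6 CPM of fibroblasts, which should lack the gene. By group the means were 53.0 CPM in IL-33+ and 14.2 CPM in IL-33- hearts in cDCs. In fibroblasts they went the other way, at 22.9 and 42.2 CPM, with 98.1 CPM in heart 6 and 0 in hearts 2 and 5.

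The cells annotated as cDCs differed between hearts in other ways. Lag3 lay in the 32 cDCs with a Siglech UMI, which held 64 of its 80 UMIs. These cells held 232 CPM over the 5 hearts that had them (166 to 344 CPM), and the 139 without Siglech held 18.4 CPM (0 to 41.7 CPM). Siglech itself was at 205, 276 and 688 CPM in the cDCs of hearts 1 to 3 and at 121, 0 and 104 CPM in hearts 4 to 6. Without the Siglech cells Lag3 was at 32.2, 41.7 and 10.1 CPM against 26.5, 0 and 0 CPM, and the groups overlapped. The 5 T cell markers, all of them present, summed to 32.2 to 71.6 CPM in the cDCs of IL-33+ hearts and to 0 to 22.2 CPM in those of IL-33- hearts. In the 147 cDCs with none of these markers, Ctla4 was at 15.8, 55.2 and 32.0 CPM against 26.7, 0 and 17.6 CPM, with overlap. The 8 dendritic cell markers summed to 1955 to 2078 CPM and to 2412 to 3901 CPM. The part of these markers in the group difference was not tested.

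**Figure D5:**
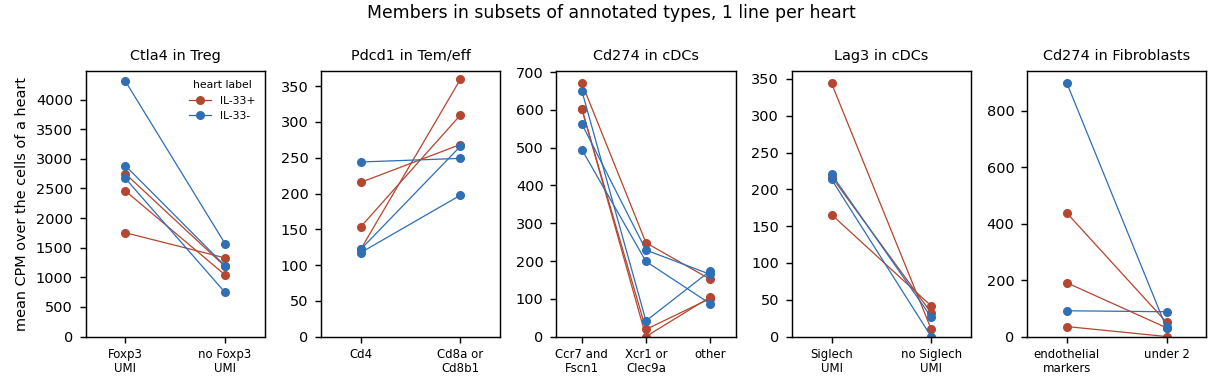
Mean CPM per heart (y axis, linear from 0) in subsets of an annotated type (x axis), with 1 line per heart, red for hearts 1 to 3 and blue for hearts 4 to 6. Panels show Ctla4 in Tregs by Foxp3, Pdcd1 in Tem/eff by Cd4 and Cd8, Cd274 and Lag3 in cDCs, and Cd274 in cells annotated as fibroblasts, and every line falls from the Foxp3, the Ccr7 and Fscn1, and the Siglech cells to the cells without them.

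The last 2 pairs rested on few cells or few UMIs. Lag3 in unconventional T cells was at 175, 395 and 119 CPM against 165, 78.7 and 28.4 CPM, with overlap, and the log2 fold change was 1.34 (SE 0.54), with an adjusted p of 0.984 in limma, where 4.54% of all genes had an unadjusted p of 0.05 or less. Hearts 2, 5 and 6 had 2, 7 and 4 of these cells. Without them the value was -0.18, with heart 4 alone on the IL-33- side, and without mixed cells it was 0.13. Cd274 in Tn was at 152, 23.2 and 75.5 CPM against 29.0, 36.1 and 0 CPM, also with overlap. Its log2 fold change was 1.56 (SE 0.75) on 37 UMIs, with an adjusted p of 0.952 in limma, beside a background of 4.92%. Without heart 1 it was 1.03 and without heart 6 it was 0.87. The 6 myeloid markers summed to 58.5 to 88.1 CPM in Tn of IL-33+ hearts and to 21.0 to 161 CPM in those of IL-33- hearts.

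Other genes of the pathway gave no call either. Of 16 other inhibitory receptors 15 were tested in some type, and of their 126 gene-type pairs 71 were higher and 55 lower in IL-33+ hearts, with 6 and 6 at an unadjusted p of 0.05 or less and a median log2 fold change of 0.10. These 12 pairs were 9.52%, against 4.71% of all gene-type pairs. Of 15 other ligands 13 were tested, in 110 pairs, with 52 higher and 58 lower, 2 and 4 at that p (5.45%) and a median of -0.05. All 12 transcription factors of T cell activation and exhaustion were tested, in 139 pairs, with 80 higher and 59 lower and a median of 0.05. At that p 10 were higher and 8 lower, or 12.9%. In all 3 lists, pairs of 1 gene in several types share hearts. Nr4a1, an early gene of T cell receptor signalling among other signals, made up 6 of the 10. In Tregs it averaged 866 CPM in IL-33+ and 320 CPM in IL-33- hearts, at 1.29 (SE 0.27) with an adjusted p of 0.300 in limma. Another of these pairs was in Mo-DCs, at 1.97 (SE 0.56). Over the types Nr4a1 was highest in fibroblasts (778 CPM) and B cells (666 CPM), and what induced it was not tested.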

How the data were processed

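Single-cell RNA sequencing (10x Genomics 3′ chemistry) and a hashtag library were made from the pooled cells of 6 heart grafts, and hearts were told apart through the deposited annotation, which gives each cell a hashtag, a graft label and a type. The authors aligned reads to mm10 with Cell Ranger, removed cells outside their limits on counts, genes and mitochondrial share to exclude doublets and dead cells in Partek Flow 10.0.23.0425 and the deposited values are log2(CPM + 1), 1 value for each gene in each cell. The logarithm was undone here, and 99.94% of low values came within 0.05 of a whole UMI. For 20 symbols values were not whole, none of them a member.

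For each heart and type the mean CPM of the cells was taken. Its log2, after adding 10, was tested between 3 and 3 hearts in limma 3.58.1 (R 4.3.3) with a moderated variance that follows mean expression, and no covariates. Since the labels do not say that the hearts were handled apart beyond their hashtags, p-values measure the spread between hearts. Hearts held 908129 to 7012943 UMIs, and intervals of shares cover counting error only. The fits were also run on simulated summed UMIs of Tregs, Tem/eff, Macrophages and NK cells, which does not cover the types with few cells per heart. Other work used Python 3.11.15, numpy 2.4.6, scipy 1.17.1, pandas 2.3.3 and matplotlib 3.10.9. Levels of each heart are given in a member's highest type and where the unadjusted p was 0.05 or less, with the most alike of the genes with 20 CPM or more in some type. Cells with 2 or more T cell and 2 or more myeloid markers (119 cells) were kept, except in an alternative. Alternatives changed the pseudocount, the filter, the summing, the method, the cells and the hearts used. The members, lists and marker genes were chosen with earlier results of these data known.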

Additional observations from a re-analysis of the deposited data

How the results depend on the processing

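No member-type pair was called at an adjusted p of 0.05 under any of the 13 alternatives, leave-one-out fits included. At an unadjusted p there were 5 pairs, 9 with limma-voom and 9 with hearts of under 10 cells left out, 4 to 7 under the other settings, and 6 to 11 with 1 heart left out (11 without heart 1 and 11 without heart 5). The share over all genes was worked out for the main fit only, and the number of pairs tested can differ between settings. A higher count under an alternative is therefore not a result about the members. Of 107 fold changes under alternatives 104 kept their direction. Havcr2 in Monocytes turned to 0.16 and Lag3 in unconventional T cells to -0.18 without hearts of under 10 cells (for Lag3, with 1 IL-33- heart left, assumed to vary like the others), and Tigit in Tregs to 0.12 with limma-voom. With 1 heart left out, 7 of 90 reversed, with ranges of -0.07 to 0.70 for Pdcd1, -0.45 to 0.11 for Ctla4, -0.44 to 0.17 for Lag3 and -0.35 to 0.26 for Tigit in Tregs and of -0.60 to 0.06 for Havcr2 in Monocytes. The highest type of a member was close to the next in 3 genes. The log2 difference of Lgals9 between NKT and NK cells became -0.04 with summed UMIs, that of Pdcd1lg2 between unconventional T cells and NKT cells -0.06 without mixed cells and -0.13 without hearts of under 10 cells, and that of Cd274 between Mo-DCs and Macrophages -0.22 in the last setting. With 1 heart left out they ran from -0.13 to 0.20, from -0.10 to 0.39 and from -0.23 to 0.23. The share of Tem/eff with 2 or more receptors rose from 36.04% to 79.2% without thinning, which keeps more UMIs per cell. Without Siglech cells Lag3 in cDCs was at 1.20, and without cells with T cell markers Ctla4 in cDCs was at 0.94, both chosen after the data were seen and untested. Where not stated, the cause was not tested. No paired analysis was possible because the hearts are numbered 1 to 6 and the groups share no number. Tigit and Cd200r1, with 103 and 223 UMIs, are limited by depth in most types.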
